A study of Mus musculus with 14 samples.

Results

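Fos, Egr1, Junb and Gadd45g are 4 genes whose transcripts rise quickly after a stimulus, and they were followed here through the tags at their poly(A) sites in 14 mouse libraries. Their 15 poly(A) sites, of 159969 in all, were taken from fixed genome windows on each gene's own strand. The genes were selected on measured values, since their levels and the difference of Gadd45g between genotypes in these same libraries were known when they were chosen. Their levels and genotype differences are therefore given as a description, with no test. The libraries were made by 3P-seq, a method that sequences the 3′ ends of polyadenylated RNA, so that a tag count at a site measures how many transcripts end there. The 6 tissues were kidney, liver, heart, lung, muscle and white adipose tissue, with 1 library of each from wild-type and 1 from miR-22 knockout mice (an allele the protocol calls miR-22D), which gives 6 wild-type and 6 knockout libraries. A mouse embryonic stem cell (mESC) and a 3T3 fibroblast library, with no genotype given, complete the series. All 14 are labelled with the 129S5/SvEvBrd background, and the labels give no age or sex and leave unsaid whether 1 animal gave several tissues.

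Immediate early genes are transcribed within minutes of a growth factor, stress or injury signal, without the need for new protein. Fos and Junb encode subunits of the AP-1 transcription factor, and Egr1 encodes a zinc-finger transcription factor. Gadd45g, like its relatives Gadd45a and Gadd45b, encodes a small acidic protein that binds stress kinases and cell-cycle regulators and is induced by stress. Their mRNAs are short-lived, so their levels follow changes in transcription closely. miR-22 is a microRNA abundant in heart and muscle, which represses mRNAs that pair with its seed.

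The sequences of the deleted microRNA and of the start regions of Fos and Gadd45g, the only members with enough tags for a fit, are shown for context; no comparison links these promoters to a level. The mature miR-22-3p is given with its seed, bases 2 to 8, in capitals. The promoters run from 250 bases before to 50 bases after the annotated start, from RefSeq on GRCm38.p6, a later build than that of the tag files, with motif matches in capitals.
mmu-miR-22-3p: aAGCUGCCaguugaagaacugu
Fos promoter: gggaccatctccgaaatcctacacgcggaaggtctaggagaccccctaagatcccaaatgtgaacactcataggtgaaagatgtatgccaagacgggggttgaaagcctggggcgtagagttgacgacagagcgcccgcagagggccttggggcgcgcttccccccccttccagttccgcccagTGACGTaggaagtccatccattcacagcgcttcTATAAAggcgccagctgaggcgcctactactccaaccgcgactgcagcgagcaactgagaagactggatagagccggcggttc
Gadd45g promoter: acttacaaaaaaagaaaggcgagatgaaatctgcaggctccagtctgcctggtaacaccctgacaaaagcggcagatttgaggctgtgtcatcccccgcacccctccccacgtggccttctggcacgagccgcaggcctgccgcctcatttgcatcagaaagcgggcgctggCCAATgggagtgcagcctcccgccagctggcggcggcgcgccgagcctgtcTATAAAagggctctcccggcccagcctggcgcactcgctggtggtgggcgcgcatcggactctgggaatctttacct
In Fos the capitals mark TGACGT, part of a cyclic AMP response element, whose first letter lies 66 bases before the start, and a TATAAA box 33 bases before it. In Gadd45g they mark CCAAT, 78 bases before the start, and TATAAA, 27 bases before it. The 300-base Junb promoter held CCAAT at 36 bases before the annotated start and TATAAA from the start base on. All of these matches were on the gene's strand, although both strands were searched. Among 32841 mouse promoters of this length, TATAAA was found in 13.6%, TGACGT in 7.52% and CCAAT in 37.4%. TATAAA stood in 1 of 16 related early-response and Gadd45 genes with a promoter entry for which the same search was made, TGACGT in 4 and CCAAT in 8. The AP-1 site TGANTCA (7.81% of all promoters), the CArG box of serum response factor (1.63%) and the EGR motif GCGTGGGCG (0.612%) had no match in the windows of the 3 members; of the 16 related genes, 0, 2 and 0 held them. Sequence outside these 300-base windows was not searched, so a match farther upstream would be missed. The start region of Egr1 was not used here. These are matches of letters and not measured binding sites.

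Library totals ranged from 2036838 tags in knockout adipose to 6010465 in knockout lung, and the mitochondrial share from 2.43% in mESC to 31.3% in knockout heart. Tissue markers were found where the labels place them, although not only there. Scgb1a1, a club cell gene, gave 68420 tags in wild-type lung but also 1113.7 in wild-type and 884 in knockout heart, and Pln, a heart muscle gene, gave 702 and 645 tags in the 2 lung libraries. Myh4, of fast skeletal muscle, gave 1022 tags in wild-type and 842.3 in knockout adipose and 0 in heart, liver and lung. Sox2, a stem cell gene added as a marker after the data were seen, gave 8064 tags in mESC and 0 in 3T3, while the window of the marker Pou5f1 held 3 tags in mESC. In bulk tissue, fewer cells of a type and less RNA per cell cannot be told apart.

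Gadd45g had 1 dominant 3′ end and was by far the most abundant of the 4 genes. Its main site ended at mm9 chromosome 13, position 51943840, on the plus strand, and held 99.9% of the gene's 6886.7 tags over the 14 libraries. Levels are given as CPM, the usual unit of tags scaled to library size, here after adjustment by the trimmed mean of M values (TMM), with 95% Poisson intervals that cover counting error only.

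In wild-type tissues Gadd45g stood at 545 CPM in muscle (1203.5 tags), 99.0 CPM in adipose (316 tags) and 40.3 CPM in liver (147 tags). Lung had 36.4 CPM (247 tags), kidney 34.1 CPM (144 tags) and heart 30.3 CPM (67 tags). With TMM scaling, muscle and adipose were each clear of the next tissue by their counting intervals. The intervals of neighbours among liver, lung, kidney and heart overlapped. The order of these lower tissues depended on the scaling. By nuclear tags, lung stood at 55.6 CPM, kidney at 49.3 CPM, liver at 37.1 CPM and heart at 25.8 CPM. Muscle (381 CPM) and adipose (126 CPM) stayed highest, and intervals were not computed with that scaling.

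In the knockout libraries the level was 1004.6 CPM in muscle (1537 tags), 330 CPM in liver (1033.2 tags) and 251 CPM in adipose (610 tags). Kidney had 142 CPM (526 tags), lung 71.7 CPM (692 tags) and heart 54.8 CPM (166 tags). With TMM scaling the order thus placed liver above adipose and kidney above lung, and no 2 neighbours overlapped in their intervals. The order of liver and adipose depended on the scaling. Scaled by nuclear tags, knockout adipose stood at 329.1 CPM and knockout liver at 326.6 CPM. Kidney (221 CPM) stayed above lung (120 CPM). Intervals were not computed with that scaling. The cell cultures were at the low end, with 18.5 CPM in mESC (59 tags) and 36.1 CPM in 3T3 (139 tags).

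**Figure D1:**
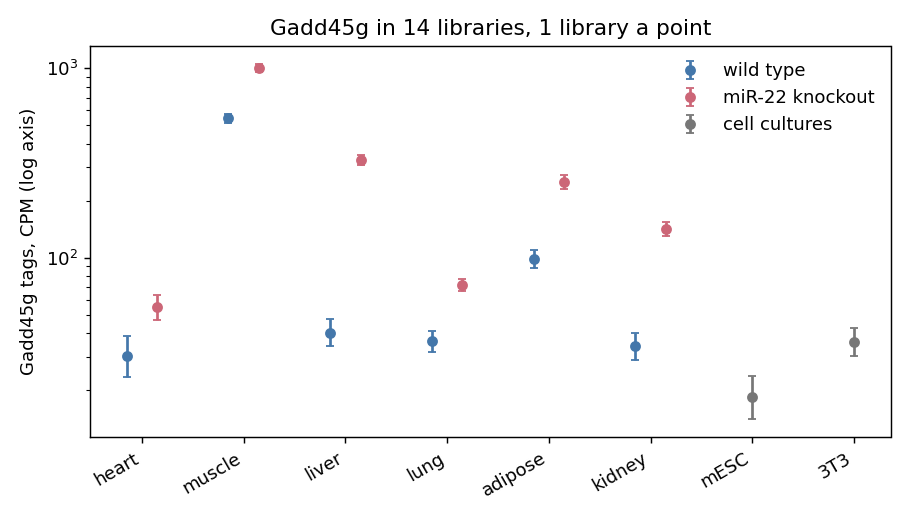
Gadd45g level in CPM on a log axis in each of 14 libraries; each point is 1 library and bars are 95% Poisson intervals for counting error. The knockout point lies above the wild-type point in all 6 tissues, and muscle is highest in both genotypes.

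Gadd45g was higher in the knockout library in 6 of 6 tissues, although the 2 genotypes overlapped as groups because the tissues differ so widely. In liver the ratio of knockout to wild type was 8.18 (95% exact binomial interval 6.88 to 9.80). Kidney followed with 4.17 (3.46 to 5.05) and adipose with 2.54 (2.21 to 2.92). The ratios were closer together in lung, at 1.97 (1.701 to 2.29), muscle, at 1.84 (1.71 to 1.99), and heart, at 1.81 (1.35 to 2.43). Liver, kidney and adipose had intervals that overlapped with no other tissue's, except that adipose and heart, and adipose and lung, overlapped. The mean log2 difference over the 6 tissues was 1.51 ± 0.86 (SD, n = 6 tissue pairs), and the fitted difference was 1.51. Both values describe the contrast on which the gene was chosen. Mean levels were 131 ± 204 CPM in wild type and 309 ± 357 CPM in knockout (SD, n = 6 each).

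Each tissue and genotype is 1 library, so how much 2 libraries of a tissue differ at other sites is the background for these ratios. Among sites with a mean of at least 20 CPM, 21.9% differed at least 2-fold in either direction between the 2 heart libraries and 31.4% between those of adipose. The share was 18.3% for muscle and 16.1% for kidney. It was lower for lung (10.1%) and for liver (8.31%). Gadd45g passed 2-fold in liver, adipose and kidney with TMM scaling. Scaled by nuclear tags or by all tags it passed 2-fold in the other 3 as well: lung gave 2.16 (nuclear) and 2.15 (all tags), muscle 2.18 and 2.23, heart 2.55 and 2.27. Fos, Egr1 and Junb stayed under 20 CPM in every tissue library. Among sites with at least 10 tags in the pair, 9 of 16942 had a larger log2 difference than Gadd45g in liver (0.0531%), and 127 of 18546 in kidney (0.685%). The share above it was 4.63% in adipose, 6.09% in lung, 7.15% in muscle and 11.4% in heart. These places in the ranking come from the contrast on which the gene was chosen, so nothing is read from them.

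Blood cell markers moved with the genotype too. The summed level of Hbb-b1 and Hba-a1, which encode adult globins, was lower in the knockout library of 6 of 6 tissues. It ranged from 16.7 to 199.5 CPM in wild type and from 5.88 to 81.3 CPM in knockout. Hbb-b1 had its lowest ratio in kidney (0.138) and its highest in lung (0.729), and Hba-a1 was lower in 5 of 6 tissues, with a ratio of 1.20 in adipose. Cfd, an adipocyte gene, was 5.54-fold higher in knockout lung (5.0 to 6.2) and 1.59-fold higher in knockout muscle, but lower in knockout heart (53 to 27 tags, ratio 0.371, 0.224 to 0.601). Its level in lung, 53.9 CPM in wild type and 299 CPM in knockout, compares with 23808 and 39015 CPM in adipose. In liver, where the Gadd45g ratio was largest, Cfd had 0 tags in both libraries. The summed globin level in liver was 16.7 CPM in wild type and 6.07 CPM in knockout. The part of globin in the Gadd45g differences of any tissue, and of Cfd in those outside liver, was not tested.

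Fos, the partner of Jun proteins in AP-1, was low in every tissue but lung. Its main site, at mm9 chromosome 12, position 86818216 on the plus strand, held 280 of its 288 tags. In wild type it had 79 tags in lung (11.6 CPM), 6 in muscle (2.71 CPM), 5 in kidney (1.18 CPM), 4 in liver (1.10 CPM) and 3 each in heart (1.36 CPM) and adipose (0.940 CPM). In knockout it had 71 tags in lung (7.35 CPM), 10 in liver (3.19 CPM), 5 in muscle (3.27 CPM), 4 each in heart (1.32 CPM) and adipose (1.65 CPM) and 2 in kidney (0.540 CPM). With TMM scaling, wild-type lung was the only tissue library of this gene whose interval was clear of the next, and knockout lung overlapped muscle. By nuclear tags, knockout lung stood farther from the rest, at 12.3 CPM, with liver at 3.16 CPM and muscle at 2.70 CPM. The mESC library was higher than any tissue, at 24.5 CPM (78 tags), and 3T3 had 3.63 CPM (14 tags). The size of that lead depended on the scaling. By nuclear tags, mESC stood at 21.8 CPM and wild-type lung at 17.8 CPM. Intervals were not computed with nuclear scaling.

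Between genotypes Fos was higher in the knockout in 3 of 6 tissues, with a mean log2 difference of 0.09 ± 0.60 (SD, n = 6 tissue pairs). In lung the ratio was 0.632 (95% interval 0.452 to 0.882), from 1 library against 1 and covering counting error only, and the intervals of the other 5 tissues included 1. The fitted difference was 0.03, also given as a description. Tags summed over tissues were 100 in wild type and 96 in knockout.

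**Figure D2:**
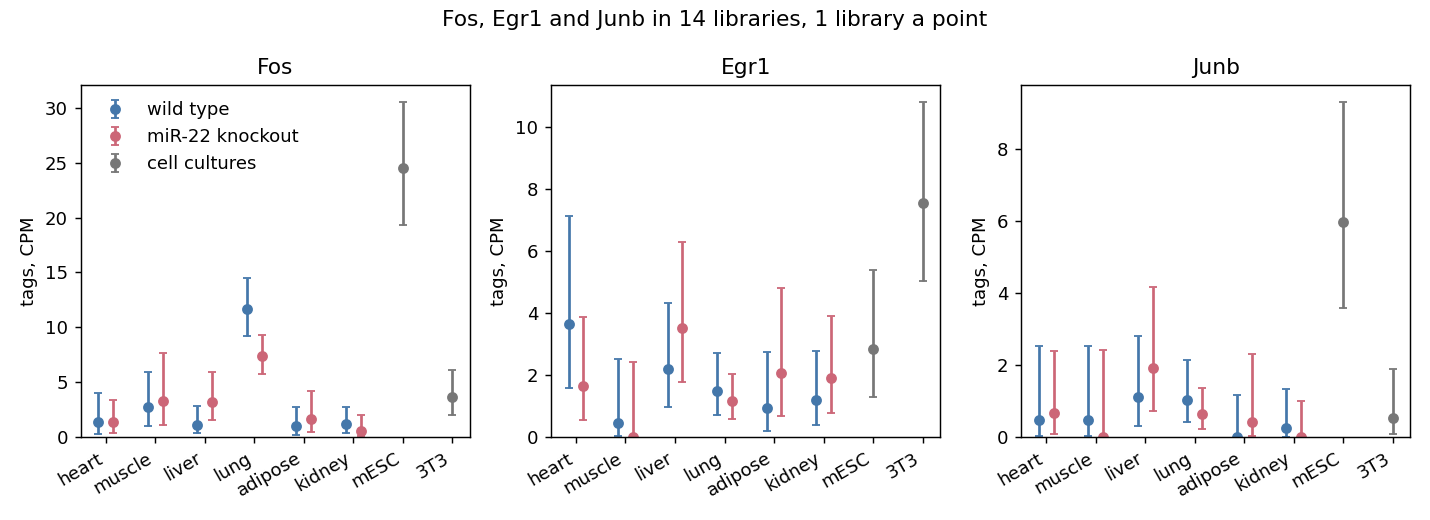
Fos, Egr1 and Junb in CPM in each of 14 libraries; each point is 1 library, bars are 95% Poisson intervals for counting error, and the 3 panels have different vertical scales. Fos is highest in mESC (24.5 CPM) and lung, Egr1 in 3T3 (7.53 CPM) and Junb in mESC (5.97 CPM).

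Egr1 was near the floor of detection in the tissues. Its main site lies at mm9 chromosome 18, position 35024609, and held 95 of its 112 tags, including all 74 tags from tissues; the tags ended at 16 different positions. The 5 minor sites had tags only in the cell cultures. In wild type it had 8 tags each in heart (3.62 CPM) and liver (2.19 CPM), 10 in lung (1.47 CPM), 5 in kidney (1.18 CPM), 3 in adipose (0.940 CPM) and 1 in muscle (0.452 CPM). In knockout it had 11 tags each in liver (3.51 CPM) and lung (1.14 CPM), 5 each in adipose (2.06 CPM) and heart (1.65 CPM), 7 in kidney (1.89 CPM) and 0 in muscle, which allows up to 1.96 CPM (3 counts). All neighbours in the order overlapped, and the interval of every genotype ratio included 1. The mean log2 difference was 0.0016 ± 0.60 (SD, n = 6 tissue pairs). The 3T3 library had the most tags, 29 (7.53 CPM), and mESC had 9 (2.83 CPM).

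Junb, another AP-1 subunit, was the rarest, with 50 tags in all. Its 2 main sites lay on the minus strand of mm9 chromosome 8, at positions 87500813 (23 tags) and 87500893 (19 tags), and another at 87501060 had 8 tags, all from mESC. In wild type it had 7 tags in lung (1.03 CPM), 4 in liver (1.10 CPM), 1 each in heart, muscle and kidney and 0 in adipose, which allows up to 0.940 CPM. In knockout it had 6 each in liver (1.92 CPM) and lung (0.621 CPM), 2 in heart, 1 in adipose and 0 in muscle and kidney, which allows up to 1.96 and 0.809 CPM. No ratio had an interval that excluded 1, and the mean log2 difference was -0.00074 ± 0.45 (SD, n = 6 tissue pairs). The mESC library stood above every tissue, with 19 tags (5.97 CPM), and 3T3 had 2. For Egr1 and Junb at this depth, no genotype ratio was clear of 1 by its counting interval. Neighbouring tissues in the order overlapped too, and differences between tissues were not tested.

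Further members of the early response and of the Gadd45 family, 18 genes in all, were looked up at mm9 windows placed from remembered gene positions. The list and the limits were chosen with earlier results of these data known. Their calls and p-values are therefore not independent support. The windows of Fosb, Egr2, Klf4 and Socs3 held too few tags to test, which for a window placed this way need not be a low level of the gene; that of Klf4 held 1 tag in each lung library and 0 elsewhere. The remaining 14 were tested with edgeR's quasi-likelihood test, with tissue and genotype as terms. At an adjusted p under 0.05, 0 of the 14 were called higher and 0 lower in the knockout, beside 0.277% of 23856 tested sites called higher and 0.0671% called lower. DESeq2 also called 0. At an unadjusted p under 0.05 there were 2. All tested sites were not counted at that limit, so this number lacks a background. Zfp36, which encodes a protein that destabilises inflammatory mRNAs, had a log2 difference of 1.07 (standard error 0.33, adjusted p = 0.228 by edgeR) and was higher in 5 of 6 knockout libraries. That fitted value is for its most abundant site (284 tags), and the sum of its window was not fitted. Ier3, a stress-induced survival gene, had -0.61 (adjusted p = 0.666 by edgeR). Zfp36 did pass when libraries were scaled by total nuclear tags or when the adipose pair was left out. The relatives of Gadd45g gave -0.25 (Gadd45a) and 0.30 (Gadd45b), and neither was called.

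Within each single tissue the listed genes, each taken at its most abundant site, lay on both sides of 0. In muscle 9 of the 13 with at least 10 tags were higher in the knockout (median log2 0.60, against -0.07 for all sites), from -1.11 for Ier2 to 1.55 for Atf3. That Atf3 value rests on 3 tags in wild type and 9 in knockout. In heart 9 of 14 were higher (median 0.12 against -0.03), from -1.33 for Jund to 1.42 for Klf6. In liver 6 of 10 were higher (median 0.08 against 0.0044), from -1.20 for Jund to 1.98 for Zfp36. In lung 6 of 14 were higher (median -0.11 against 0.0032), from -1.12 for Nr4a1 to 1.24 for Gadd45b. In adipose 4 of 12 were higher (median -0.29 against -0.01), from -2.34 for Klf6 to 1.55 for Jund. In kidney 5 of 13 were higher (median -0.34 against -0.02), from -1.03 for Klf6 to 1.21 for Zfp36. By the sum of all sites in a window, an alternative added after the data were seen, 9 of 13 were higher in muscle, 9 of 14 in heart, 7 of 10 in liver, 7 of 14 in lung, 3 of 12 in adipose and 5 of 13 in kidney. The largest values by sums were then those of Jun in muscle (1.55) and Nr4a1 in kidney (0.99), and of the same genes as above in the other 4 tissues. By either measure, Gadd45g lay above every listed gene with that many tags in liver and kidney, but not in the other 4 tissues. Gadd45g was chosen on this contrast, so nothing is read from its place among the listed genes.

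**Figure D3:**
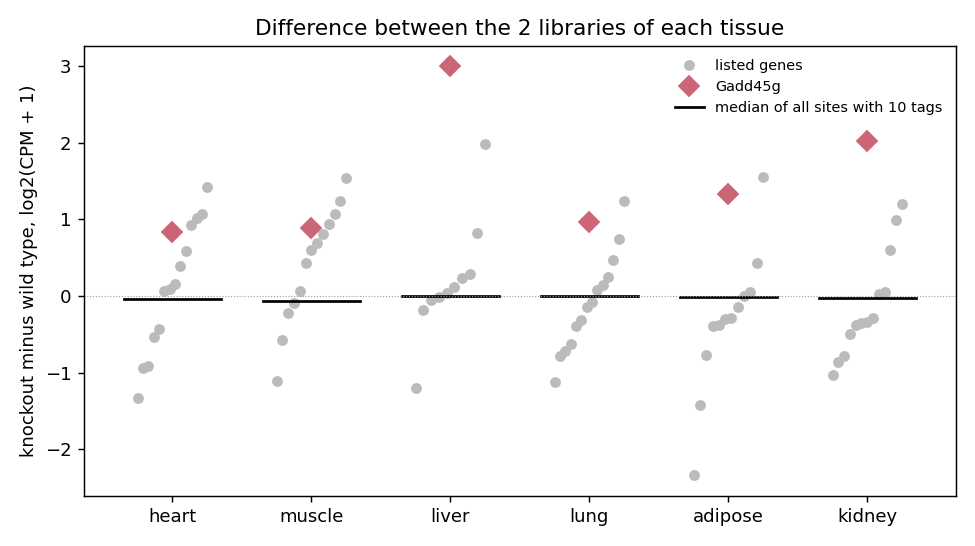
Knockout minus wild type on the log2(CPM + 1) scale, by tissue, for Gadd45g (diamonds) and for the most abundant site of listed early-response and Gadd45 genes with at least 10 tags in the pair (grey points, sorted within a tissue); black lines are the medians of all such sites. Gadd45g is above 0.8 in every tissue and above all listed genes in liver (3.00) and kidney (2.03). It was chosen on this contrast, so nothing is read from its place.

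Among tissues, the listed genes had their highest median in lung, where Fos was highest too. The same fit set each tissue against the average of the remaining 5, with calls at an adjusted p under 0.05 and at least 4-fold. In lung 7 of 14 were called higher (Gadd45b, Ier3, Btg2, Klf6, Jun, Fosl2 and Dusp1) and 0 lower, beside 12.5% and 4.71% of all tested sites. The median log2 difference was 1.72, and 13 of 14 were positive. Neither value was computed over all tested sites, so both lack a background. Gadd45b had 4.01 (adjusted p = 1.84e-15 by edgeR), with 44.3 CPM in wild-type and 104 CPM in knockout lung. Ier3 had 3.80 (adjusted p = 1.24e-16 by edgeR), with 366 and 212 CPM. The fitted value of Fos in lung was 2.58, given as a description.

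In liver 1 listed gene was higher and 4 were lower, beside 13.8% and 9.88% of sites. Ier2, an early-response nuclear protein gene, was higher (log2 2.08, adjusted p = 4.21e-07 by edgeR). Ier3 (-4.35, adjusted p = 4.96e-10) and Gadd45b (-3.78, adjusted p = 1.69e-06) had the largest differences of those lower, with Nr4a1 and Klf6 the others. In heart 2 were higher and 0 lower, beside 9.15% and 2.98%. These were Atf3, a stress-induced transcription factor gene (2.28, adjusted p = 0.000569 by edgeR), and Ier3 (2.18, adjusted p = 1.41e-07). Atf3 had few tags, 16 in wild-type heart (7.25 CPM) and 10 in knockout heart (3.30 CPM), while knockout muscle had 9 (5.88 CPM). In the same heart libraries the lung marker Scgb1a1 stood at 504 and 292 CPM, against 10077 and 4569 CPM in lung, and its part in the Ier3 level was not tested.

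In muscle only Nr4a1, an orphan nuclear receptor gene, was called (log2 4.83, adjusted p = 1.69e-18 by edgeR), with 1 higher and 0 lower beside 8.61% and 6.86%. It stood at 66.7 CPM in wild-type and 139 CPM in knockout muscle, and at 0.319 to 15.9 CPM in the other tissue libraries. Gadd45g also had its largest tissue value in muscle (3.25, a description). In adipose 0 were higher and 1 lower, beside 8.65% and 3.39%: Ier3 (-2.29, adjusted p = 7.58e-05 by edgeR). In kidney 0 were called either way, beside 13.8% and 4.07%, although Gadd45a had a log2 difference of 1.33 (adjusted p = 0.00177 by edgeR), under the 4-fold limit.

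**Figure D4:**
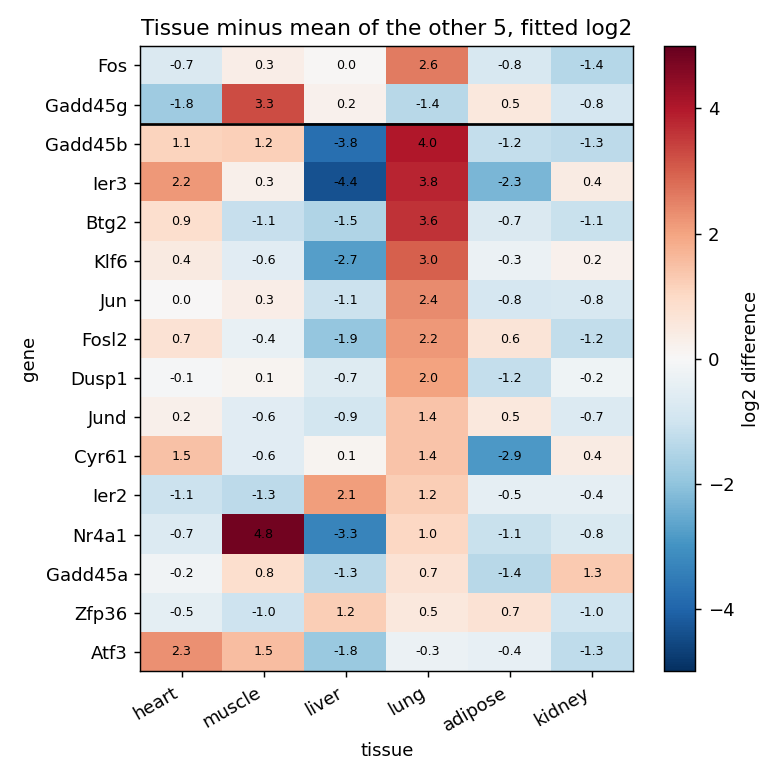
Fitted log2 difference of each tissue (columns) from the mean of the other 5 for Fos and Gadd45g (above the line) and the 14 tested listed genes (rows, sorted by lung). Fos shares its highest value in lung with most listed genes, while Gadd45g (3.25) and Nr4a1 (4.83) are highest in muscle.

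Across the 12 tissue libraries, log2(CPM + 1) of Fos followed that of Jun most closely among the listed genes (Pearson r = 0.84), then Dusp1 (0.79) and Btg2 (0.74). For Gadd45g the nearest listed gene was Nr4a1 (0.55), and Gadd45a (-0.05) and Gadd45b (-0.13) lay near 0. Over all tested sites, the nearest to Fos lay at mm9 chromosome 14, position 61582686 on the minus strand (0.96), chromosome 3, position 22114213 on the plus strand (0.92), and chromosome X, position 131231291 on the plus strand (0.92). For Gadd45g they lay at chromosome 11, position 51416450 on the plus strand (0.92), chromosome 4, position 32110438 on the plus strand (0.90), and chromosome 2, position 84679008 on the minus strand (0.90). The points share tissues and library depth, 2 lung libraries carry the Fos values, and Egr1 and Junb are too sparse for such values to be read.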

How the data were processed

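The data were 14 deposited 3P-seq files, each listing poly(A) site intervals with an estimated count of tags; 1.21% to 5.79% of a library's sites carry fractional values, for which the sources used here give no reason. The submitters' processing notes name CASAVA 1.7, Bowtie (version not given) and mm9. No replicates were made, per the labels. Sites of 1 strand that overlapped or touched were merged over the 14 libraries, and tags were rounded to whole numbers for the fits. A gene's level is the sum of its window's sites; the fit, and the listed genes' differences within a tissue, use its most abundant site. The members, the gene lists and the limits were chosen with earlier results of these data known. The windows of listed genes and markers were placed from remembered mm9 gene positions, with no annotation of that build used here, so those names rest on position alone. edgeR 4.0.16 (R 4.3.3) fitted tissue and genotype to the 12 tissue libraries, after a low-count filter (minimum count 10) that left 23856 sites, with TMM scaling and Benjamini-Hochberg adjustment over all of them. The filter passed 2 of the 4 members, Fos and Gadd45g. The mESC and 3T3 libraries were scaled on the same 23856 sites, which were filtered in the tissue libraries alone. With 5 residual degrees of freedom, the genotype term was tested against its variation between tissues, and tissue calls used the 2 genotypes of a tissue as its replicates. The p-values measure the spread between these libraries only. Intervals and floors (3 counts) cover counting error only, since tags carry no stated molecular identifiers and may repeat a molecule. DESeq2 1.42.0, other scalings and filters and left-out libraries were alternatives. Members were described in full; of the list, those called between genotypes, the 2 largest calls per tissue and direction, and the extremes within a tissue were named. Zfp36, Ier3, Gadd45a, Gadd45b and the remaining lung and liver calls named outside this rule were chosen after their values were seen.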

Additional observations from a re-analysis of the deposited data

Results flagged for a closer look

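For 3 of the 14 tested listed genes the 2 genotypes differed at least 2-fold in opposite directions in 2 tissues, with counting intervals that left out 1 in both. Atf3, with 4.33 in muscle and 0.455 in heart, did not meet the condition on the interval in heart. Jund, which encodes an AP-1 subunit, had a ratio of knockout to wild type of 2.88 in adipose, 0.402 in heart and 0.443 in liver. Klf6, a zinc-finger transcription factor gene, had 2.38 in heart, 0.244 in adipose and 0.473 in kidney. Nr4a1 had 2.40 in kidney, 2.09 in muscle and 0.462 in lung. These ratios sum all sites in a gene's window. Each value compares 1 library with 1 library, and the difference between tissues was not tested. Differences of at least 2-fold within a tissue were common among sites with a mean of at least 20 CPM (8.31% in liver to 31.4% in adipose). How many of all sites differ in opposite directions in 2 tissues was not counted, so these genes are not shown to be unusual.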

How the results depend on the processing

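Of 180 alternative values, 165 stayed within the error of the value reported (its counting interval, the SD over tissues or, for counts, 1.5 times) and 15 moved; none changed the direction of a called value. The cause of the moves was not tested. Scaling by nuclear tags gave 172 sites called between genotypes in place of 82, 1 listed gene higher in the knockout (Zfp36) in place of 0, 2 higher calls in the tissues other than lung in place of 4, and 8 lower calls over all tissues in place of 5. It raised the Gadd45g ratio to 2.55 in heart, 2.18 in muscle and 2.16 in lung, and scaling by all tags gave 2.27, 2.23 and 2.15, so that all 6 tissues passed 2-fold with either. Without a term for tissue 1 site was called. With no limit on the fold, 11 listed genes were higher in lung in place of 7, 8 calls were higher in the other tissues and 16 lower. Leaving out 1 tissue pair gave 13 (without kidney) to 132 (without adipose) sites, 46 without heart, and 0 to 1 listed genes higher. Leaving out 1 library gave 5 to 8 higher in lung, 3 to 6 higher elsewhere and 5 to 7 lower. The share of all tested sites called in a tissue was not counted for these alternatives, including the one with no limit on the fold. The tissue counts of listed genes under them therefore lack a background. Leaving out 1 pair moved the mean log2 difference of Gadd45g between 1.21 and 1.64, Fos between -0.10 and 0.22, Egr1 between -0.13 and 0.16 and Junb between -0.10 and 0.11. The fit with tissue as a term pairs the 2 genotypes of each tissue. The planned test of site use between genotypes was not run, since no tissue pair had 20 Junb tags in each library and the other members have 1 main site.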
